A study of Mus musculus with 15 samples.

Results

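The aminoacyl-tRNA synthetases were followed in the livers of mice that developed hepatocellular carcinoma and were transfected with *Gas1*. The members were 36 genes chosen by name, 20 for cytosolic and 16 for mitochondrial enzymes, and they were found through the gene names of the array. They were covered by 45 of the 55681 non-control probes and were 36 of the 22032 gene symbols measured. The samples formed 3 groups of male CD1 mice, named C, T and G. Group C had saline at day 15 after birth, while groups T and G had the carcinogen diethylnitrosamine (DEN). All groups, the controls too, then underwent hydrodynamic gene delivery (HGD), a rapid injection into the tail vein that brings plasmid into liver cells. It began in week 28 and ended in week 34, and the paper states for group G that it was repeated weekly. Livers were taken in week 35. Groups C and T were given the empty plasmid and group G a plasmid with HA-tagged *Gas1* under the CAG promoter, which is not restricted to hepatocytes. The dose for HGD was 50 μg of DNA per delivery. HGD reaches only some of the liver cells, so the RNA of group G mixes transfected with untransfected cells. The sample records give an age of 10 weeks, which differs from the ages above. Labelled liver RNA was hybridised to single-colour arrays, of which 4 belong to the controls, 5 to the DEN mice and 6 to the *Gas1* mice. Arrays that carry one RNA code were averaged, which left 3, 4 and 6 mice.

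Aminoacyl-tRNA synthetases join each amino acid to its tRNA and so supply the ribosome with substrates. Cytosol and mitochondria mostly use separate enzymes, those of the mitochondria being encoded in the nucleus and usually marked by a final 2 in the gene symbol, while the glycine and lysine enzymes *Gars* and *Kars* serve both. Several cytosolic genes are targets of Atf4, the transcription factor of the amino acid response, and *Wars*, for tryptophan, is induced by interferon gamma.

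The sequences below show where the tryptophan enzymes were measured and which promoters of the family carry a C/EBP-ATF element, the kind of site that Atf4 binds. The first pair are array probes of 60 bases, given by the array for the mouse build mm9 and printed in lower case throughout. The *Wars* probe lies at chr12:110104366-110104425, on the minus strand, in coding sequence at base 1036 of its transcript. The *Wars2* probe lies at chr3:99009150-99009209, on the plus strand, at base 440 of its transcript.
*Wars* upstream probe: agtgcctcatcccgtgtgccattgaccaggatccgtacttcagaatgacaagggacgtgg
*Wars2* first probe: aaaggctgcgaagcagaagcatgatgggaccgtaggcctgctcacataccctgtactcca
The windows that follow were read from RefSeq promoters of GRCm38.p6, which run from 250 bases before to 50 bases after the start of transcription. The capitals mark a match to TGATGNAA on either strand, and the windows are written in the direction of the gene.
*Aars*, chr8:111033722-111033745, plus strand: cttgagcaTTGCATCAgccgagcc
*Iars*, chr13:49682129-49682152, plus strand: tgtcagtaTTGCATCAcctccaga
*Tars*, chr15:11399658-11399681, minus strand: gagtcccgTTGCATCAgctggtta
*Yars*, chr4:129189898-129189921, plus strand: agctcagcTGATGCAAcccgacgg
*Gars*, chr6:55037963-55037986, plus strand: ctgcgctaTTTCATCAtgcaccgg
Of the 26 members with a promoter in the table, these 5 (19.2%) held the element, against 4.51% of all genes. All 5 are cytosolic. The narrower letters TGATGCAA stood in 4 of the 26 (15.4%), against 1.03% of all genes. Letters in a window are a description and not a site shown to be bound.

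Of the 59305 non-control spots, 15707 to 29765 per array were well above background, and none was saturated. All 8 hepatocyte markers were above background on every array. Most exocrine pancreas markers were not, 7 of 10 being above background on no array of group C, 7 on none of T and 5 on none of G. In group T 3 of the 10 were above it on every array. In T against C 3 were higher and 7 lower, from -0.07 to 0.84 (smallest limma adjusted p 0.0518). In G against T 7 were higher and 3 lower, from -0.61 to 0.07. None was called, and the part of these markers in the results was not tested. Of the 8 hepatocyte markers, 6 were lower and 2 higher in group T than in C, with a median difference of -0.20. Limma called 1 of them as lower (adjusted p 0.00425), beside 2.37% of all genes in either direction. Of 9 leukocyte markers measured, 4 were higher and 5 lower. Limma called 1 of these as higher (adjusted p 0.0267), beside 1.18% of all genes. The mean level of the 3 erythroid markers was higher in group T (log2 between 12.28 and 12.57) than in group C (12.05 at most). In group G it ranged from 11.45 to 13.21 with a median of 12.59. Of the 3, 2 were higher and 1 lower (-0.14) in T than in C, and none was called. Their part in the results was not tested. All 4 biliary markers were lower in group T than in C, none of them called, and their mean log2 level was 6.22 to 6.40 against 6.38 to 6.58. These levels were near background. In group C 0 of the 4 were above background on every array, and in group T 2 of the 4 were above it on no array. Of 4 stellate and fibroblast markers, 1 was higher and 3 lower in T than in C. Of 4 endothelial markers, 2 were higher and 2 lower. None of either set was called. In liver RNA as a whole, fewer cells of a type and less RNA per cell cannot be told apart. Values below are log2 intensities after quantile normalization, and a difference called significant had a limma p, adjusted by Benjamini-Hochberg over all features, under 0.05. Of the 45 member probes, 33 were above background on all 15 arrays and 4 on none. The latter were the second probe of *Aars* and the only probes of *Yars*, *Mars2* and *Nars2*, so that the last 3 genes had no measured level.

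Between livers with DEN tumours (group T) and controls (group C), 1 of the 36 members, *Wars2*, passed the test, and it was higher in group T. Over all genes 2.37% passed in either direction, and 1.18% passed as higher. The number with an unadjusted p under 0.05 was 6 of 36, and over all genes 20.2% had one. Under median scaling 15 of the 36 members were called, beside 2876 of the 22032 genes, 2861 of these as higher. The median difference was then 0.76 for the cytosolic and 0.58 for the mitochondrial enzymes, beside 0.12 over all genes. Leaving out 1 mouse gave 0 to 2 calls, 2 of them without mouse 1 of group T. No member was called without mice 1 or 3 of group C or 2, 3 or 4 of group T. The members leaned upwards in group T, 27 being higher and 9 lower than in group C, and their median log2 difference was 0.11 beside 0.01 over all genes. The median was 0.11 for the cytosolic enzymes, 16 of 20 higher, and 0.08 for the mitochondrial ones, 11 of 16 higher. A filter on dim probes kept those above background on every array of at least 1 group. The median was then 0.12 over 33 members and 0.03 over all genes left. Under every processing alternative run, between 24 and 36 of the members tested, dim ones included, were higher in group T, the latter under median scaling, where every member gene was higher. The groups did not overlap for 6 members (16.7%), which is near the 18.6% of all genes (10.2% higher, 8.41% lower). These were *Gars*, *Rars*, *Sars* and *Wars2*, higher in group T, and *Tars* and *Hars2*, lower except under median scaling, which turned the last pair to higher.

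**Figure D1:**
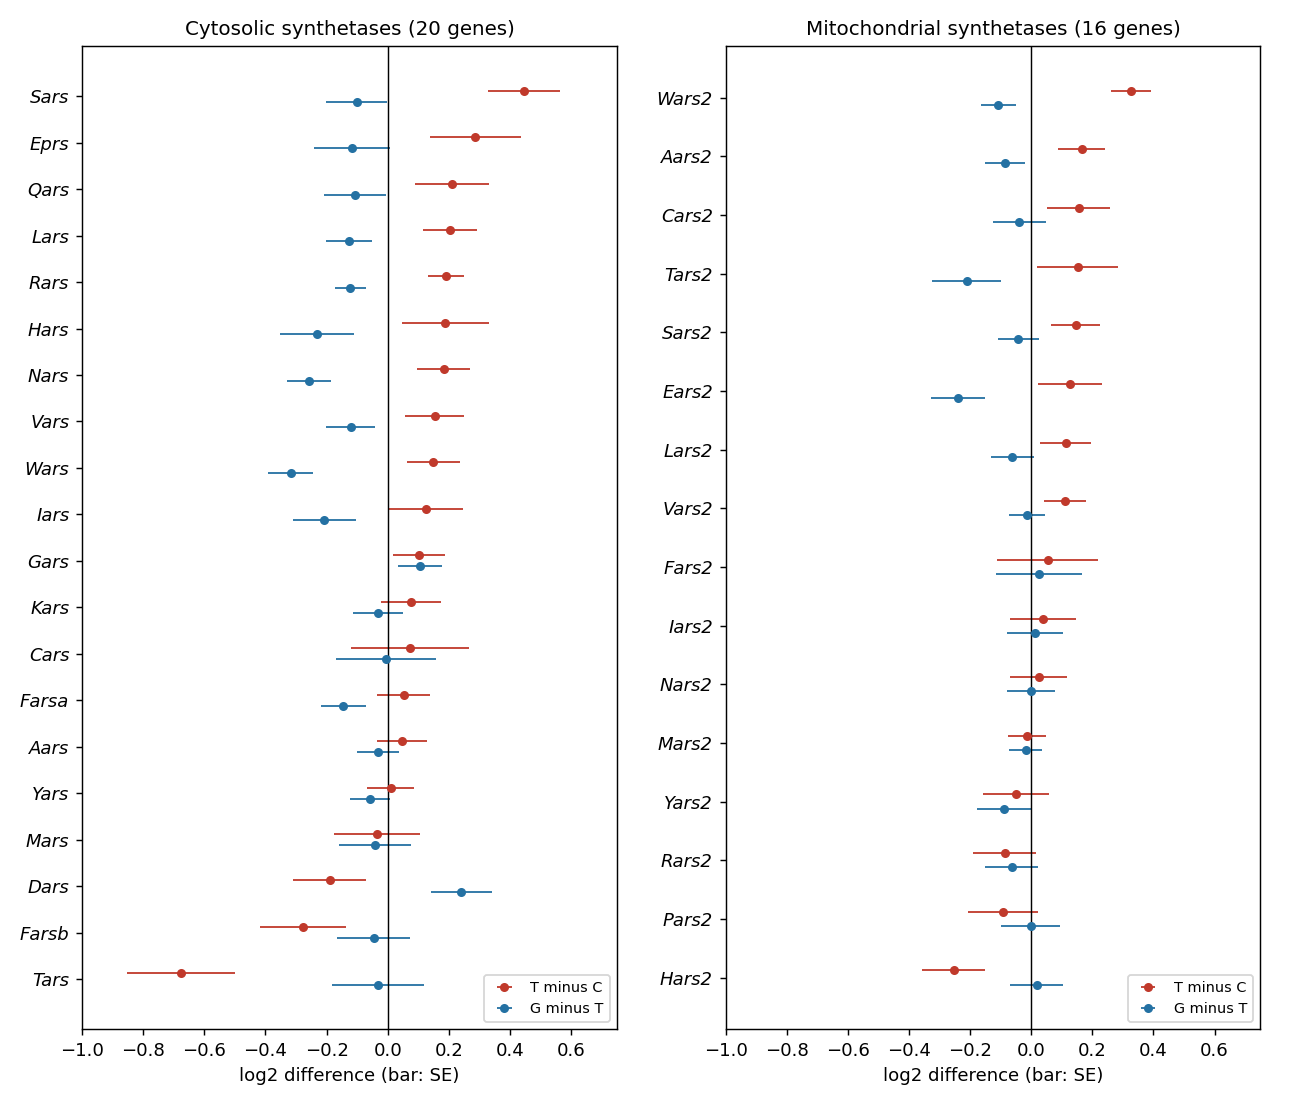
Log2 differences between group means for the 20 cytosolic and 16 mitochondrial synthetases, ordered by T minus C, with standard errors from limma. T minus C lies above 0 for 27 genes and G minus T below 0 for 30, and *Tars* shows the most negative T minus C (-0.68, which becomes 0.31 under median scaling). *Yars*, *Mars2* and *Nars2* were above background on no array.

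The tryptophan enzyme of the cytosol, *Wars*, gave the only calls of a single probe. Its downstream probe lies at chr12:110098245-110098304 on the minus strand, at base 2766 of its transcript. The array gives this base position on another RefSeq transcript than that of the upstream probe. The downstream probe read 9.35, 9.13 and 9.15 in the mice of group C. In group T it read 9.65, 9.78, 9.68 and 9.68. In group G the lowest was 9.12, the median 9.26 and the highest 9.38. Every mouse of group T was thus above every mouse of the other groups, while groups C and G overlapped. The probe rose by 0.49 ± 0.07 (SE) in group T against C, a fold of 1.40 with a limma adjusted p of 0.0139. It fell by 0.44 ± 0.06 in group G against T, a fold of 1.35 with a limma adjusted p of 0.0437, and G minus C was 0.05 ± 0.07 with an adjusted p of 0.813. It was the one member probe of 45 called in each of the first pair of comparisons, in which 1.25% and 0.0413% of all probes were called (0.594% as higher in the first and 0.0287% as lower in the second). No member probe was called by limma in G against C, where 0.122% of all probes were called and 10 member probes had an unadjusted p under 0.05, as had 11.4% of all probes.

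The T against C call of the downstream probe held when each of the 13 mice was left out, with adjusted p-values of 0.00976 to 0.0495. The G against T call was lost, with adjusted p-values of 0.0517 to 0.137, when any of 10 mice was left out, that is without mice 2 or 3 of group C, 1, 2, 3, 5 or 6 of group G, or 2, 3 or 4 of group T. On slide 1 alone T minus C was 0.59 and G minus T -0.42, and on slide 2 alone they were 0.33 and -0.46, none of them past the threshold. Both calls were also lost when signals were scaled to the 75th percentile and by the two-tailed test that the methods name, and the G against T call also under median scaling. On 1 of the 4 arrays of group C the downstream spot was flagged and left out, so that mouse 3 there rests on 1 array.

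The upstream probe of *Wars*, whose sequence is given above, did not show this pattern. It read 7.35, 6.79 and 6.78 in group C and 6.86, 6.92, 6.73 and 6.82 in group T. In group G it ranged from 6.49 to 6.88 with a median of 6.61. The groups overlapped, and mouse 1 of group C stood above all others. T minus C was -0.14 ± 0.13 (SE), with a limma adjusted p of 0.620, and it turned to 0.05 without that mouse, to 0.09 on slide 1 alone and to 0.23 under median scaling. G minus T was -0.20 ± 0.11 with a limma adjusted p of 0.627. Both probes were above background on all 15 arrays.

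With both probes averaged, *Wars* as a gene was 8.12 ± 0.21 (SD, n = 3) in group C, 8.27 ± 0.06 (n = 4) in group T and 7.95 ± 0.09 (n = 6) in group G. The lowest mouse of group T was at 8.20 and the highest of group G at 8.11, so that those groups did not overlap. It was the one such member of the 35 with a value in every mouse, where 2.91% of all genes did not overlap, 1.91% being lower. T minus C was 0.15 ± 0.09 (SE) with a limma adjusted p of 0.378. It was 0.27 without mouse 1 of group C and 0.071 without mouse 2, and it passed with the brightest probe alone (0.49, adjusted p 0.0103) and under median scaling (0.79, adjusted p 0.0330). G minus T was -0.32 ± 0.07 with a limma adjusted p of 0.125.

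**Figure D2:**
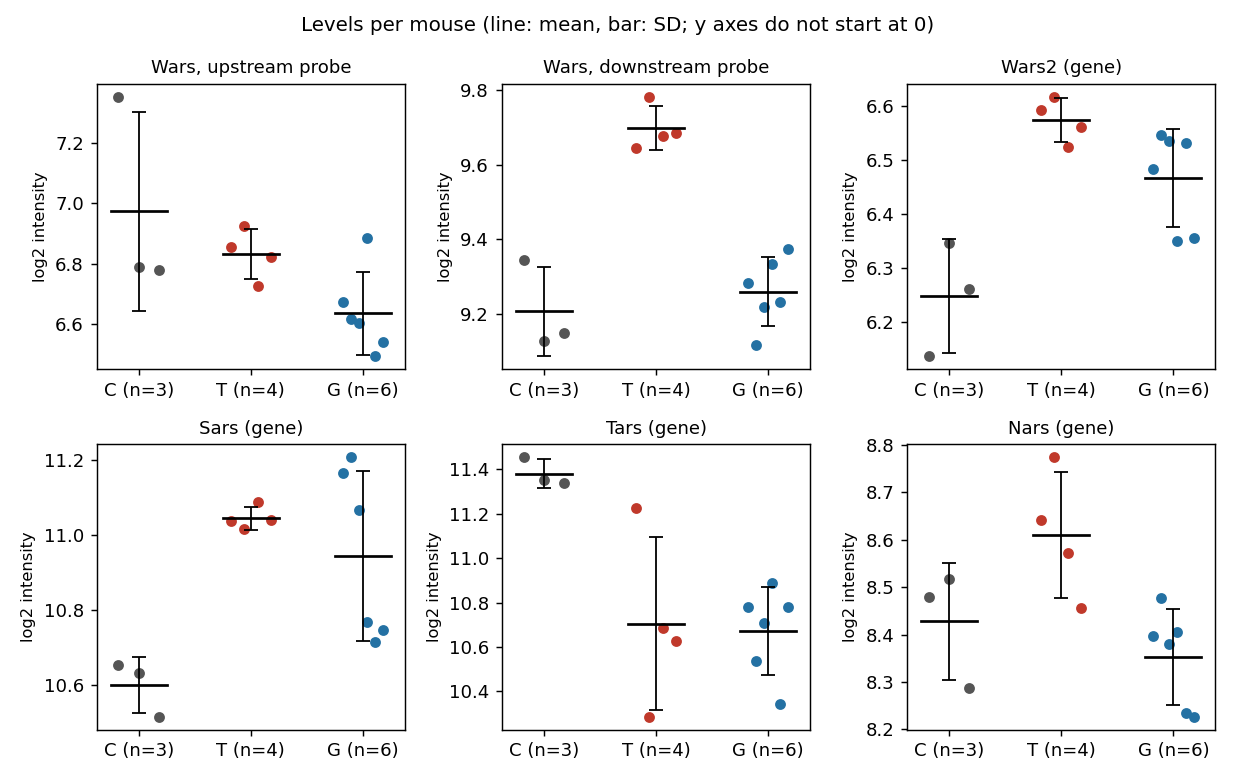
Log2 intensity per mouse in groups C, T and G for both *Wars* probes and for *Wars2*, *Sars*, *Tars* and *Nars*, with the mean (line) and SD (bar). The 4 mice of group T lie between 9.65 and 9.78 for the downstream *Wars* probe, above all mice of groups C and G, while the upstream probe overlaps in all groups. Every control lies above all other mice for *Tars*, a direction that median scaling reverses.

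The disagreement between the *Wars* probes was measured within each mouse, as the downstream minus the upstream value. The size of this quantity depends on the probes, and its change between groups is what can be read. It was 1.99, 2.34 and 2.37 in group C. In group T it ranged from 2.79 to 2.95, and in group G from 2.45 to 2.84 with a median of 2.61. Group C lay below every mouse of the other groups, and groups T and G overlapped. The difference between groups was 0.63 for T against C (exact two-sided permutation p = 0.0286, the smallest that these mice allow), -0.24 for G against T (exact p = 0.0238) and 0.39 for G against C (exact p = 0.0119, the smallest possible). Adjusted over the 3 comparisons, each exact permutation p was 0.0286. This comparison was made after the probes had been seen to differ. Over the 27 settings with both probes, T minus C stayed positive, between 0.50 and 1.16. On slide 1 the mean was 2.38 in group C, 2.87 in T and 2.63 in G, and on slide 2 it was 2.86 in T and 2.62 in G, beside 1.99 on the one array of group C with both spots.

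The array lists 3 RefSeq transcripts for the downstream probe and 1 for the upstream probe. The downstream probe contains the letters AATAAA, which form the usual polyadenylation signal, as did 7 of the 45 member probes (15.6%) and 10.1% of all probes. RNA had been labelled from an oligo-dT primer, which starts at the poly(A) tail. Over 724 genes with a pair of probes at least 500 bases apart and above background everywhere, the median downstream minus upstream value, set against group C, was -0.07 to 0.09 in group T, -0.03 to 0.04 in C and -0.10 to 0.09 in G, so the groups overlapped. The part of transcript form in the *Wars* result was not tested.

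Other members with more than 1 probe also split. Of the 9 such genes, 5 had probes with opposite signs for T minus C. In 4 of them, *Farsa*, *Iars2*, *Tars2* and *Wars*, both probes were above background on all arrays, and all 4 had opposite signs. *Farsa*, the alpha subunit of the phenylalanine enzyme, gave -0.22 ± 0.10 (SE) upstream and 0.33 ± 0.10 downstream. *Tars2*, the mitochondrial threonine enzyme, gave -0.04 ± 0.18 and 0.35 ± 0.13. *Iars2*, for mitochondrial isoleucine, went the other way with 0.27 ± 0.15 and -0.03 ± 0.10, its upstream value resting on 2 mice each of groups C and T because flagged spots were left out. None of these 6 probes was called, and the smallest limma adjusted p was 0.111, for the downstream *Farsa* probe.

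**Figure D3:**
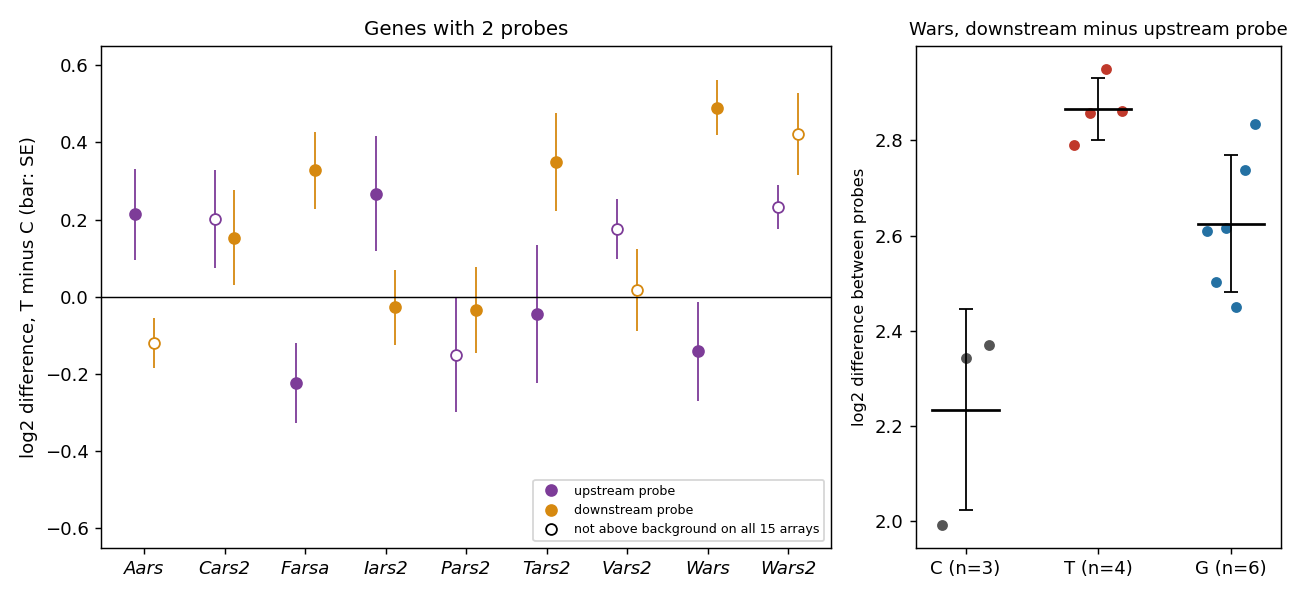
Left, the log2 difference T minus C (with SE) of each probe of the 9 members with 2 probes, open points marking probes not above background on all 15 arrays. Right, the downstream minus the upstream *Wars* probe in each mouse, with mean and SD, where group C (1.99 to 2.37) lies below groups T (2.79 to 2.95) and G (2.45 to 2.84).

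The mitochondrial tryptophan enzyme, *Wars2*, was the only member called as a gene. It read 6.14, 6.35 and 6.26 in group C and 6.59, 6.62, 6.52 and 6.56 in group T. In group G the lowest mouse was at 6.35, the median at 6.51 and the highest at 6.55. Groups C and T did not overlap, and the lowest mouse of G lay just above the highest of C. *Wars2* rose by 0.33 ± 0.07 (SE) in group T, a fold of 1.25 with a limma adjusted p of 0.0296. G minus T was -0.11 ± 0.06 with an adjusted p of 0.525, and G minus C was 0.22 ± 0.06 with an adjusted p of 0.145, both from limma.

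These *Wars2* signals were close to background. The first probe, printed above, was well above background on 0 of 4 arrays of group C, 1 of 5 of T and 1 of 6 of G, and the second on 2 of 4, 5 of 5 and 6 of 6. The second probe alone gave 0.42 ± 0.11 (SE) with a limma adjusted p of 0.0687 over all probes. The call for the gene was lost without mice 1 or 3 of group C or 2, 3 or 4 of group T, with adjusted p-values of 0.0518 to 0.109. It was also lost with the brightest probe per gene, cyclic loess, 75th percentile scaling, each slide alone and the two-tailed test of the methods.

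Among cytosolic enzymes, those for serine and threonine differed most between groups T and C, and neither passed the test. *Sars*, for serine, read 10.65, 10.63 and 10.51 in group C and 11.04, 11.02, 11.09 and 11.04 in group T. In group G it ranged from 10.71 to 11.21 with a median of 10.92. Every mouse of both DEN groups was above every control. T minus C was 0.45 ± 0.12 (SE), with a limma adjusted p of 0.0638. It passed in 6 of 28 alternatives, with adjusted p-values from 0.0112, and was 1.43 under median scaling (adjusted p 0.0269), and in the others the adjusted p reached 0.266. G minus C was 0.35 ± 0.11 with an adjusted p of 0.193 and G minus T -0.10 ± 0.10 with an adjusted p of 0.765, again from limma.

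*Tars*, for threonine, went the opposite way to *Sars*. It read 11.45, 11.35 and 11.34 in group C and 11.23, 10.29, 10.68 and 10.63 in group T. In group G it ranged from 10.34 to 10.89 with a median of 10.74. All controls lay above all DEN mice, and mouse 1 of group T was nearest to them. T minus C was -0.68 ± 0.18 (SE), with a limma adjusted p of 0.0640, and without mouse 1 of group T it was -0.85 with an adjusted p of 0.00938. G minus C was -0.71 ± 0.16 with a limma adjusted p of 0.0896. Under median scaling *Tars* was instead 0.31 higher in group T and 0.14 higher in group G than in C.

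The third largest cytosolic difference was that of *Eprs*, a fused enzyme for glutamate and proline, at 0.29 ± 0.15 (SE) with a limma adjusted p of 0.310. Its probe was above background on 2 of the 4 control arrays. After *Wars2*, the mitochondrial enzymes with the largest differences were *Hars2*, for histidine, and *Aars2*, for alanine. *Hars2* was -0.25 ± 0.10 with a limma adjusted p of 0.189 (0.54 under median scaling), and *Aars2* was 0.17 ± 0.08 with an adjusted p of 0.249. For 14 of the 20 cytosolic and 14 of the 16 mitochondrial enzymes the difference between T and C was under 0.2 in size on the log2 scale. *Gars*, for glycine, and *Rars*, for arginine, also kept the groups apart, but by little. *Gars* read 11.51, 11.46 and 11.48 in group C and 11.66, 11.54, 11.53 and 11.62 in group T, a difference of 0.10 ± 0.09. *Rars* read 6.42, 6.39 and 6.48 against 6.59, 6.65, 6.58 and 6.66, a difference of 0.19 ± 0.06 with a limma adjusted p of 0.104, and was above background on 2 of the 4 control arrays.

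The other members are given for T against C. In group T against C the leucine, glutamine, histidine and valine enzymes of the cytosol gave 0.20 ± 0.09 (*Lars*, SE), 0.21 ± 0.12 (*Qars*), 0.19 ± 0.14 (*Hars*) and 0.15 ± 0.10 (*Vars*). The asparagine enzyme *Nars* gave 0.18 ± 0.09. The lower ones were *Farsb* at -0.28 ± 0.14 and *Dars* at -0.19 ± 0.12, the beta subunit for phenylalanine and the aspartate enzyme. The isoleucine, lysine, cysteine and alanine enzymes gave 0.12 (*Iars*), 0.08 (*Kars*), 0.07 (*Cars*) and 0.05 (*Aars*), with SEs of 0.12, 0.10, 0.19 and 0.08. The methionine enzyme *Mars* gave -0.03 and *Farsa* 0.05. The *Aars* value averages 2 probes that differed in sign. The first, above background on all 15 arrays, gave 0.21 ± 0.12 with a limma adjusted p of 0.375 over all probes. The second, above background on no array, gave -0.12 ± 0.07. Among the mitochondrial enzymes, *Cars2*, *Sars2*, *Tars2*, *Ears2*, *Lars2* and *Vars2* lay between 0.11 and 0.16, *Fars2* and *Iars2* at 0.05 and 0.04, and *Yars2*, *Pars2* and *Rars2* at -0.05, -0.09 and -0.09. None of these had a limma adjusted p below 0.223. The SE of a single gene had a median of 0.11 for the cytosolic and 0.10 for the mitochondrial enzymes.

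With *Gas1* (group G against group T), no member gene passed the limma test, and 5 of 36 had an unadjusted p under 0.05. Over all genes 0.132% passed and 10.8% had an unadjusted p under 0.05. The mice of group T serve in both this comparison and the one above, so the opposite directions are not independent. The members leaned downwards, 30 being lower and 6 higher in group G, with a median of -0.06 beside -0.01 over all genes. The cytosolic enzymes had a median of -0.10 with 18 of 20 lower, and the mitochondrial ones -0.04 with 12 of 16 lower. With the filter on dim probes the median was -0.09 over 33 members and -0.02 over all genes left. Between 25 and 35 of the members tested, dim ones included, were lower under the alternatives run. After *Wars*, the cytosolic enzymes that differed most were those for asparagine and aspartate. *Nars*, for asparagine, read 8.64, 8.77, 8.57 and 8.46 in group T. In group G it ranged from 8.23 to 8.48 with a median of 8.39, so that only the lowest mouse of group T lay within the range of group G. The difference was -0.26 ± 0.07 (SE) with a limma adjusted p of 0.196. *Dars*, for aspartate, went the other way, at 7.97, 8.13, 7.96 and 8.16 in group T and from 8.02 upwards, with a median of 8.35, in group G. The groups overlapped, and the difference was 0.24 ± 0.10 with a limma adjusted p of 0.413. Among the mitochondrial enzymes they were *Ears2*, for glutamate, at -0.24 ± 0.09 (limma adjusted p 0.350), *Tars2* at -0.21 ± 0.11 (0.530) and *Wars2*, given above.

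Groups G and C were also compared, to see which levels in the *Gas1* livers still stood apart from controls. No member passed the limma test, and 6 of 36 had an unadjusted p under 0.05. Over all genes 0.427% passed and 13.3% had an unadjusted p under 0.05. The members were split, 20 higher and 16 lower, with a median of 0.03. *Sars* and *Wars2* (higher) and *Tars* (lower, except under median scaling) did not overlap between the groups, 3 of 35 members (8.57%) beside 5.54% of all genes (2.63% higher, 2.91% lower). *Farsb*, the beta subunit of the phenylalanine enzyme, was -0.32 ± 0.13 (SE) with a limma adjusted p of 0.308, and 0.38 under median scaling. *Hars2* was -0.24 ± 0.09 (limma adjusted p 0.307) and *Rars2*, for mitochondrial arginine, -0.15 ± 0.10 (0.548), and median scaling turned them to 0.48 and 0.49.

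The cytosolic and mitochondrial sets were then summarised per mouse as the median distance of their genes from the mean of group C. For the 20 cytosolic enzymes this was between 0.09 and 0.16 in group T and between -0.06 and 0.07 in group C. Group G spread from -0.14 to 0.10 and reached into both. For the 16 mitochondrial enzymes group T ran from -0.03 to 0.11, C from -0.04 to 0.02 and G from -0.04 to 0.03, so all groups overlapped. Within a mouse of group T, 14 to 16 of the 20 cytosolic and 7 to 13 of the 16 mitochondrial genes were above the mean of group C. The difference between the compartments was not tested. Within groups, the SD of the median between mice was 0.0712 for the cytosolic and 0.0596 for the mitochondrial set.

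Genes that work with the synthetases were counted in the same fit. None of the 3 scaffold genes of the multisynthetase complex, *Aimp1*, *Aimp2* and *Eef1e1*, was called by limma in T against C, with differences of 0.24, 0.33 and -0.15, and 2 of them had an unadjusted p under 0.05. Of 19 cytosolic translation factors, 17 were higher in group T and 16 lower in group G than in T, with medians of 0.10 and -0.12. None was called by limma, and 4 had an unadjusted p under 0.05 in each comparison, beside 20.2% and 10.8% of all genes. None of 15 mitochondrial translation factors was called by limma, 4 and 2 having an unadjusted p under 0.05, and their medians were 0.02 and -0.05. Of 25 genes of the amino acid response, 16 were higher and 9 lower in T than in C, with a median of 0.12 and a range from -0.85 to 2.48. In G against T 11 were higher and 14 lower, with a median of -0.06 and a range from -1.14 to 0.56. An unadjusted p under 0.05 was found for 6 in T against C and 6 in G against T. Limma called 1 of the 25, as higher in T against C, beside 1.18% of all genes. This was *Phgdh*, the first enzyme of serine synthesis, which rose by 1.05 ± 0.21 (SE) in group T with a limma adjusted p of 0.0296. *Atf4* itself was -0.04 ± 0.16 with a limma adjusted p of 0.933. Of the 5 members with the promoter element, T minus C was 0.12 for *Iars*, 0.10 for *Gars* and 0.05 for *Aars*. The *Aars* probe above background gave 0.21. *Tars* was at -0.68 (0.31 under median scaling), and *Yars* had no measured level.

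Of the endoplasmic reticulum chaperones, all 15 were higher in group T, with a median of 0.45, and all 15 were lower in group G than in T, with a median of -0.37. In each direction 1 was called, *Dnajb11* at 0.66 ± 0.15 (SE, limma adjusted p 0.0407) and *Sdf2l1* at -0.91 ± 0.15 (limma adjusted p 0.0479). Over all genes 1.18% were called as higher in T against C, and 0.132% in either direction in G against T. An unadjusted p under 0.05 was found for 8 and 11 of the 15, beside 20.2% and 10.8% of all genes. Group T serves in both comparisons, so the opposite directions are not independent. Of 15 interferon gamma response genes, the class through which *Wars* is known to be induced, none was called in any comparison by limma, and none had an unadjusted p under 0.05. Their medians were 0.01 for T minus C and -0.01 for G minus T.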

How the data were processed

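The authors extracted the arrays (Agilent) with Feature Extraction 10.7.3.1 and deposited the intensity of each spot and of its background, not normalized between arrays, and a table of log2 values after normexp and quantile normalization, whose offset is not stated. From the deposited intensities, log2 values were rebuilt by normexp (offset 50) and quantile normalization over 59305 spots. Outlier-flagged spots (218 to 3692 per array) were left out. Probes were centred on their own means and averaged per gene symbol. The median absolute difference from the authors' table was 0.00274 on the log2 scale.

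Arrays sharing an RNA code in their record (C3 with C4, T4 with T5) were averaged, giving 13 mice, since their differences had SDs of 0.145 and 0.142 against at least 0.290 and 0.231 for other pairs of those groups. Nothing else shows that the rest come from separate animals. Models were fitted in R 4.3.3 with 1 mean per group by limma 3.58.1 and eBayes, Benjamini-Hochberg over 22032 genes or 55681 probes. *Mars2* was missing in 1 mouse of group G. The script was tested on simulated data.

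Named with values were *Wars* and its probes, any member called, and in each comparison the 3 cytosolic and 3 mitochondrial members with the largest differences. All other genes were named after their values were seen. The members and lists were chosen with earlier results of these data known. All 15 arrays lie on 2 slides that hold every group. Groups C, T and G held 3, 4 and 6 mice, and what limited the precision was not tested. Of the 36 symbols, 35 are current in RefSeq.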

Additional observations from a re-analysis of the deposited data

Results flagged for a closer look

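Of 86 sets of values tested for a mouse far from the rest of its group, 1 stood out, where chance gives about 1 in 20. In group G the median distance of the 16 mitochondrial synthetases from group C was -0.04 in mouse 5 and 0.01 to 0.03 in the other 5 mice, so that the gap was 0.626 of the group's whole range.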

How the results depend on the processing

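The 26 differences of named members and *Wars* probes kept direction and side of the threshold in 649 of 716 recalculated values. They lost significance in 35, gained it in 17 and reversed in 15. The causes were not tested unless stated. Over all genes, limma called 523 for T against C, 29 for G against T and 94 for G against C, and the alternatives gave 0 to 2876, 1 to 268 and 0 to 338.

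Median scaling, which quantile normalization replaces, moved the median of all genes to 0.12 for T minus C, -0.05 for G minus T and 0.09 for G minus C. It called 15 member genes and 10 member probes for T against C, where it called 2876 of all genes, 2861 of them as higher. For G against T it called 0 member probes. The cytosolic medians became 0.76 (T minus C) and 0.62 (G minus C), and the mitochondrial ones 0.58, -0.11 (G minus T) and 0.47. Reversed for T minus C were *Tars* (0.31), *Hars2* (0.54) and the upstream *Wars* probe (0.23), and for G minus C *Tars* (0.14), *Hars2* (0.48), *Farsb* (0.38), *Rars2* (0.49), *Wars* (0.41) and its upstream probe (0.023). Scaling processed signals to the 75th percentile moved the median of all genes to -0.40, -0.03 and -0.30, called 0 member genes and 0 member probes for T against C and 0 member probes for G against T, and gave cytosolic medians of 0.26 and -0.25 and mitochondrial ones of 0.20 and -0.15 for those comparisons. Cyclic loess called 0 member genes for T against C.

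For T against C, 2 member genes were called from the authors' table (*Sars*, *Wars2*), 3 genes and 2 probes with a filter on dim probes, 3 genes and 4 probes with slide as a term, and 4 genes and 7 probes with all 15 arrays taken as separate mice. The last setting counts arrays of one RNA code as mice. It called 1 member gene for G against T and 1 member gene and 1 member probe for G against C. Over all genes it called 268 and 338 in those comparisons. Each slide alone, which has fewer arrays, called 0 member genes and 0 probes for T against C and 0 probes for G against T. On slide 1 the upstream *Wars* probe reversed for T minus C (0.090) and *Wars* for G minus C (0.042), and on slide 2 the downstream probe reversed for G minus C (-0.13). The plain mean of the probes and the brightest probe turned *Wars* for G minus C to 0.051 and 0.053, and the latter called 1 member gene, *Wars*, for G against T. The two-tailed t-test, which the methods name for groups of animals and not for the arrays, was run with equal variances or Welch's statistic. After Benjamini-Hochberg adjustment it called 0 member genes and 0 member probes for T against C and 0 probes for G against T. Over all genes it called 0 for T against C in both forms, so the lack of calls is not particular to the members. For T against C 5 member genes had an unadjusted p under 0.05 in both forms.

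Without each of the 13 mice in turn, member genes called ranged from 0 to 2 for T against C, 0 to 0 for G against T and 0 to 1 for G against C, and member probes from 1 to 2, 0 to 1 and 0 to 1. The largest counts for T against C came without mouse 1 of group T, when *Tars* was called too, also for G against C (limma adjusted p 0.0289). Cytosolic medians ranged from 0.083 to 0.19, -0.13 to -0.06 and -0.03 to 0.04, and mitochondrial ones from 0.05 to 0.11, -0.06 to -0.03 and -0.01 to 0.06, in the same order. The upstream *Wars* probe ranged from -0.24 to 0.049 for T minus C, and the highest value was that without mouse 1 of group C.

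Mice with the same replicate number did not pair: their deviations correlated between -0.31 and 0.25 over 10 pairs (median 0.08), against a median of 0.01 for other numbers. With the replicate number as a block, 278, 6 and 50 genes were called, 0 member probes were called for G against T, the cytosolic median for G minus T was -0.020, and the one member gene called for T against C was *Sars* (limma adjusted p 0.0472) in place of *Wars2* (0.0514).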
